A study of Homo sapiens with 2 samples.

Results

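The collagen genes were examined in a ChIP-seq peak list for lysine crotonylation (Kcr), an acylation of lysine residues that occurs on histones. A listed peak was counted as a collagen peak when its assigned gene was protein-coding and its whole symbol had the form COL, a number, A and a digit, such as COL28A1. Of the 10041 listed peaks, 33 met this rule, and they were assigned to 18 of the 44 collagen genes of that pattern in RefSeq. The study's material was T98G, an established human glioblastoma cell line. The cells had been given crotonate, a precursor of crotonyl-CoA, at 10 µM according to the series description, for 48 h. Chromatin was precipitated with a pan-Kcr antibody, which recognises crotonylated lysine on any protein. The groups were the crotonate ChIP (1 library) and the crotonate input (1 library), both from crotonate-treated T98G cells. Untreated cells were not analysed here, so no value below is a response to crotonate. No group had a replicate. The list holds no expression values, so the identity of the cells could not be checked against marker genes.

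Collagens are extracellular proteins built from 3 chains wound into a triple helix. Fibrillar collagens form the banded fibres of tendon, bone, skin and cartilage, and collagen IV forms the sheet-like network of basement membranes. The other collagens decorate fibrils, span the plasma membrane, or form beaded filaments, anchoring fibrils and short-chain networks. In brain, much of the collagen lies in the basement membranes of blood vessels. Histone Kcr is known as a mark of open chromatin at active promoters and enhancers. Of the 44 genes, 11 were fibrillar, 6 were basement membrane collagens (COL4A1 to COL4A6) and 27 were placed in the other group.

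The height of each peak was given by the deposited fold enrichment over the caller's background. Every pair of fold enrichment and p-value in the list could be written as a whole number of ChIP fragments over that background. This number is a depth of overlapping fragments, solved from 1 pair of values per peak. It does not count all fragments along the width of a peak, which may be more. Below, a peak said to hold 2 or 3 fragments has that depth, and each collagen peak had a depth of 2 or 3. Fold enrichment at collagen peaks ran between 2.53 and 3.64 with a median of 2.70, against 2.52 to 6.57 with a median of 2.73 over all peaks. The q-value, the p-value adjusted by the authors over the genome, was 1 for 27 of the 33 collagen peaks and 0.831 for the other 6. In the whole list the lowest q-value was 0.0557. No collagen peak had a depth of more than 3 fragments, and the intervals below cover counting error only.

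The sequences of 4 collagen promoters are shown because a promoter peak was assigned to each of these genes. They are the RefSeq windows on GRCh38.p14, which run from 250 bases before to 50 bases after the start of transcription, written along the gene's own strand. CG dinucleotides, the sites of DNA methylation, are in capitals. The windows are chr1:31703968-31704267 (minus strand) for COL16A1, chr10:104085831-104086130 (minus strand) for COL17A1, chr5:178590344-178590643 (minus strand) for COL23A1 and chr13:110307034-110307333 (plus strand) for COL4A2.
COL16A1: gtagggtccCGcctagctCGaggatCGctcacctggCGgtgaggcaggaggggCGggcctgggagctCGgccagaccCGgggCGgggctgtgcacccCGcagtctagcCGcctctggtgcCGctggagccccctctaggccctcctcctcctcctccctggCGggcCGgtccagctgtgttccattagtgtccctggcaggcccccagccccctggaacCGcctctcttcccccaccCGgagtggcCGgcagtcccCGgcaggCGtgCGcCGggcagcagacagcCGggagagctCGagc
COL17A1: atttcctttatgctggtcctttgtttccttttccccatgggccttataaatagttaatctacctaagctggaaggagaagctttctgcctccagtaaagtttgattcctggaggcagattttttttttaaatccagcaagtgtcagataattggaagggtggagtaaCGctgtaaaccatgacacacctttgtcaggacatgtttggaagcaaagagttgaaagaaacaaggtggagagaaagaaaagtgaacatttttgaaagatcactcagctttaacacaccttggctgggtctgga
COL23A1: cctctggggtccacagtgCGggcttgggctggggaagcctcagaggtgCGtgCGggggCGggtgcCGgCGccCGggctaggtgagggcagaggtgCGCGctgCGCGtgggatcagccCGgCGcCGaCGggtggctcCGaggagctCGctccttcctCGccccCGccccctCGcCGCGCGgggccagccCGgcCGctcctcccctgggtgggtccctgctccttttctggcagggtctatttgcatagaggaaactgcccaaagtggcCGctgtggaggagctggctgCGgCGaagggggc
COL4A2: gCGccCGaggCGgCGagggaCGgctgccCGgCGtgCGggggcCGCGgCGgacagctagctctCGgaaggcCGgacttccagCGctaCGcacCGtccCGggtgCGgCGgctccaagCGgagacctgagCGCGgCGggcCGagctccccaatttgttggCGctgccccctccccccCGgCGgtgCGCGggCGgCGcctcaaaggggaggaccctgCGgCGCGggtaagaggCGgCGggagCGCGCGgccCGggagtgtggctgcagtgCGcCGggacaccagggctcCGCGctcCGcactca

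The 4 windows differed widely in CG content. COL4A2 held 45 CG sites, COL23A1 28 and COL16A1 22, whereas COL17A1 held 1. Over 22199 such windows of protein-coding genes the median was 21, with quartiles of 7 and 31, and over the 44 windows of 32 collagen genes it was 17. The letters TATAAA, searched on both strands as the core of a TATA box, were found in the COL17A1 window and in none of the other 3. There they lay near the upstream end of the window, away from the start of transcription, and are not read as a TATA box. Of all windows, 9.47% held these letters. The COL4A2 window shared 226 bases with the window of COL4A1, which is transcribed from the opposite strand of the same promoter region. None of the peaks in the list overlapped a window of the 32 collagen genes, and 0.391% of the 15843 protein-coding genes with a window had one overlapped. For 12 of the 44 collagen genes no window was used here.

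A promoter peak, which in the authors' annotation lies within 3 kb of the start of an annotated transcript, was assigned to 6 of 44 collagen genes (13.6%, exact 95% interval 5.17 to 27.4), against 5.98% of all 20056 protein-coding genes. The lower end of the collagen interval lay below that background. These shares count starts inside genes and were not matched for gene length. A summit within 3 kb of the RefSeq start itself was found at 2 of the 32 collagen genes with a window (6.25%). Over the 15843 protein-coding genes with a window the share was 3.04%. The COL23A1 summit described below lay 3.11 kb from that start and was beyond this limit. The 7 promoter peaks fell into 2 kinds. Near the RefSeq start of the whole gene lay 3 of them. At COL17A1, a transmembrane collagen of the hemidesmosome, a peak at chr10:104087210-104087491 lay 1330 bp upstream of the start (2 fragments, 2.53-fold). At COL16A1, a fibril-associated collagen, a peak at chr1:31701342-31701623 lay 2394 bp downstream of the assigned start (2 fragments, 2.56-fold). At COL23A1, another transmembrane collagen, a peak at chr5:178587241-178587511 lay 2882 bp downstream (2 fragments, 2.63-fold). In each of these, the peak was a neighbour of the printed window and did not reach it, with gaps of 1080 bp at COL17A1, 2345 bp at COL16A1 and 2833 bp at COL23A1.

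The other 4 promoter peaks lay within 3 kb of the starts of shorter transcripts, between 13.6 and 197 kb inside the gene from its RefSeq start. The 2 promoter peaks of COL4A2 were of this kind. One, at chr13:110432388-110432708, was 125 kb into the gene. It lay 2337 bp downstream of the start of a transcript of 0.957 kb, and so past the end of that transcript. The other, at chr13:110504267-110504608, was 197 kb into the gene and 291 bp from the start of a transcript of 0.620 kb. Both held 3 fragments, with fold enrichments of 3.64 and 3.54. The promoter peak of COL15A1, a multiplexin of the basement membrane zone, was 94.3 kb into the gene (chr9:99038083-99038381, 2.73-fold). The promoter peak of COL27A1, a fibrillar collagen of cartilage, was 13.6 kb into the gene and spanned the start of a transcript of 50.9 kb (chr9:114167553-114167948, 2.62-fold). The peak at the promoter of COL4A2 in the annotation was thus far from the shared COL4A1 and COL4A2 promoter, where no peak was listed.

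By annotation, 19 of the 33 collagen peaks were intronic, 7 promoter, 4 intergenic, 2 exonic and 1 in a 3′ UTR. Introns held 57.6% of collagen peaks (exact 95% interval 39.2 to 74.5) against 47.7% of the peaks of all protein-coding genes. Intergenic peaks made up 12.1% of collagen peaks (3.40 to 28.2) and 18.0% of the peaks of protein-coding genes, so both background shares lay inside the collagen intervals. Of the 19 intronic peaks, 17 lay in intron 2 or a later one. The same share over all intronic peaks was not set beside it, so whether it is a trait of collagens was not tested. The exceptions were at COL5A1 (intron 1 of 65) and COL8A1 (intron 1 of 2).

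Fibrillar collagens carried 9 peaks, all at 3 of the 11 genes. COL5A1, a chain of collagen V, which sets the diameter of collagen I fibrils, had 3. COL11A1, which does the same in cartilage fibrils, had 3, in introns 4, 28 and 41 of 66 at 52.4, 118 and 150 kb from the start. COL27A1 had 3, at its internal promoter, in intron 27 of 60 and in an exon. The peaks of COL5A1 lay 11.1 kb upstream of the gene, 3.71 kb into it and 193 kb into it. Each of these 9 peaks held 2 fragments, with fold enrichments of 2.53 to 2.73. The genes of the most abundant fibrillar collagens, COL1A1, COL1A2, COL2A1 and COL3A1, had none. COL5A2, COL5A3, COL11A2 and COL24A1 had none either.

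In the basement membrane class, 4 peaks were assigned to 2 of the 6 genes. COL4A2, a chain of the ubiquitous collagen IV network, had 3, the 2 promoter peaks described and a 2-fragment peak in an exon at 177 kb. COL4A4, a chain of the network of the kidney glomerulus, had 1 in intron 8 of 47 (2 fragments, 2.53-fold). COL4A1, COL4A3, COL4A5 and COL4A6 had none assigned. Collagen IV genes lie in head-to-head pairs. Inside the COL4A2 span lay 5 peaks in 206 kb, a rate of 24.3 per Mb (exact Poisson 95% interval 7.88 to 56.7). Inside the neighbouring COL4A1 lay 0 in 158 kb, which allows up to 19.0 per Mb, a limit that lies inside the COL4A2 interval. The X-linked pair, COL4A5 and COL4A6, had 0 peaks in 0.542 Mb, which allows up to 5.54 per Mb. The whole X chromosome had 1.05 peaks per Mb.

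Among the other collagens 20 peaks were assigned to 13 of the 27 genes, and 6 of them to COL28A1. This gene encodes a collagen with von Willebrand factor A domains, related to the beaded-filament collagens. Its peaks along the gene lay at 4.58, 39.8, 110, 147, 164 and 212 kb from the RefSeq start, and the last was past the end of the 206 kb gene. The one at 4.58 kb was annotated as intergenic, since the assigned transcript starts 3287 bp downstream of it. The peak at 39.8 kb (chr7:7504022-7504398, intron 11 of 34) held 3 fragments at 3.64-fold, and the other 5 held 2. Of the 20056 protein-coding genes, 14 had 6 or more peaks. Of the 1270 protein-coding genes of 150 to 300 kb, 2 had 6 or more (0.157%), and 7 had 5 or more inside the span (0.551%). COL28A1 was picked out here after its count was known, so its rank is a description. It lies on chromosome 7, where the list held 4.03 peaks per Mb.

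The fibril-associated collagens, which sit on the surface of fibrils, had 7 peaks at 5 of 10 genes. COL9A1 of cartilage and COL14A1 had 2 each, and COL16A1, COL21A1 and COL22A1 had 1 each. The 4 transmembrane collagens (COL13A1, COL17A1, COL23A1 and COL25A1) had 1 peak each. They were the only subclass of more than 1 gene in which each member had an assigned peak, although 2 of the 4 peaks lay outside the RefSeq span. Their rate was 3.78 assigned peaks per Mb (1.03 to 9.68), against 4.74 over all collagens. By position, 2 of the 4 held a peak, whereas both of the 2 multiplexins, COL15A1 and COL18A1, did. COL6A5, a chain of collagen VI, COL8A1, a short-chain collagen, and COL15A1 had 1 each. No peak was assigned to COL7A1 of anchoring fibrils, to COL6A1, COL6A2, COL6A3 and COL6A6, to COL8A2 and COL10A1, to COL9A2, COL9A3, COL12A1, COL19A1 and COL20A1, or to COL18A1 and COL26A1.

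**Figure D1:**
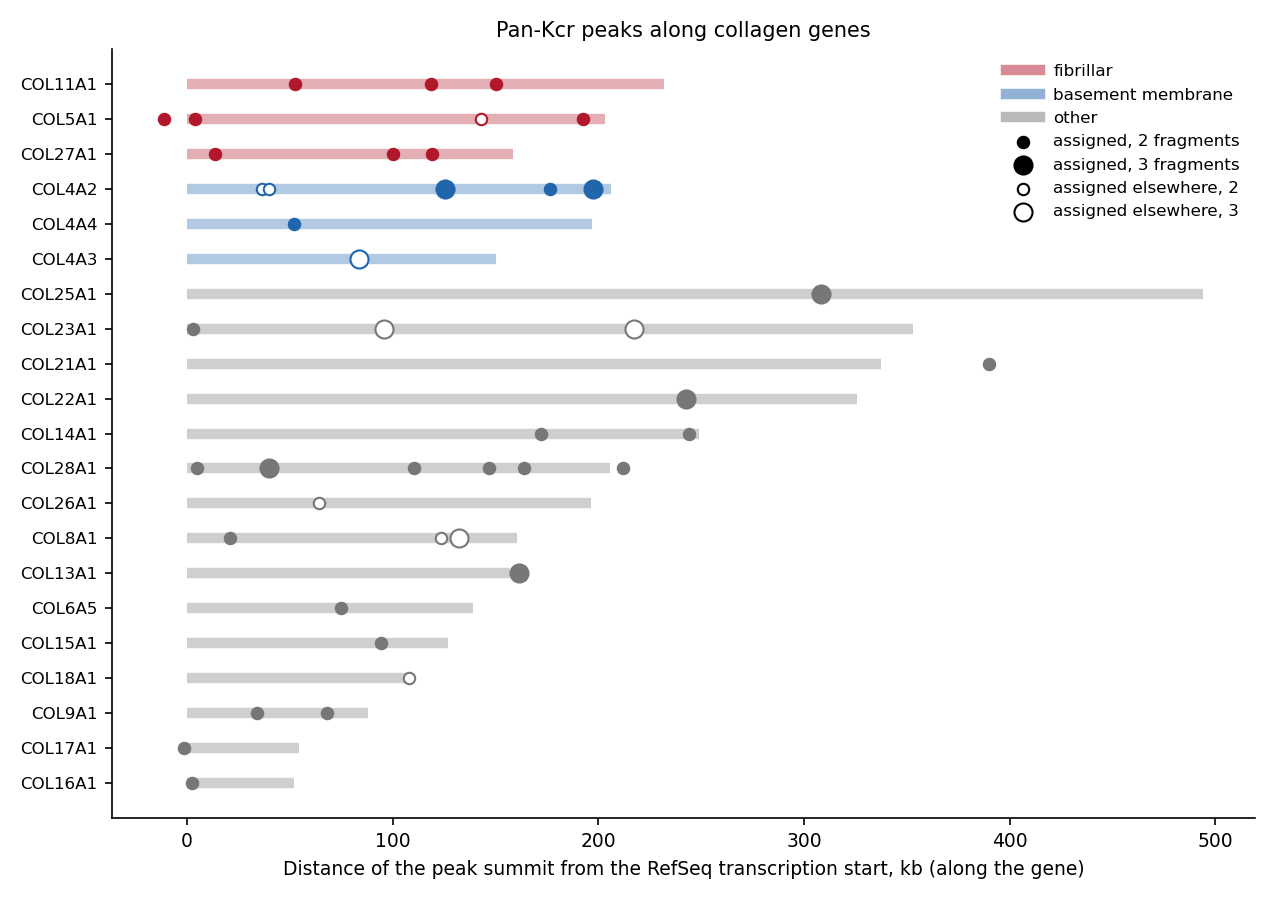
Pan-Kcr peaks along the 21 collagen genes with an assigned peak or a peak inside the gene. The x axis is the distance of the peak summit from the RefSeq start of transcription in kb, bars are gene spans coloured by class, filled circles are peaks assigned to the gene, open circles are peaks inside it that were assigned to another gene, and large circles held 3 fragments and small ones 2. COL28A1 had 6 assigned peaks, and 2 of the 5 peaks inside COL4A2 were assigned elsewhere.

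Peaks with 3 fragments made up 6 of the 33 collagen peaks (18.2%, exact 95% interval 6.98 to 35.5), against 25.8% of all peaks with 3 or more. No collagen peak held 4 or more, as 2.23% of all peaks did. Beside the 2 of COL4A2 and the 1 of COL28A1, they were at COL13A1 of the neuromuscular junction (chr10:69963148-69963489, 3.64-fold), at COL25A1, a transmembrane collagen expressed in neurons (chr4:108994196-108994631, 3.64-fold), and at COL22A1 of the muscle-tendon junction (3.38-fold). The COL13A1 peak lay just past the RefSeq end of the gene, in the last intron of a transcript that the authors' annotation carries past that end. The peaks of COL25A1 and COL22A1 lay in intron 6 of 37 and intron 15 of 38. No fibrillar collagen had a peak of 3 fragments. Collagen peaks were 260 to 566 bp wide with a median of 313 bp, against a median of 315 bp over all peaks.

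Assignment to the nearest transcript start moved peaks out of the collagen counts. Inside collagen gene spans lay 38 peaks, 28 of them assigned to that collagen and 10 to another gene. Inside COL4A2, 2 peaks were assigned to MIR8073, a microRNA gene. COL8A1 and COL23A1 each held 2 assigned to noncoding RNA genes. One each was inside COL5A1, COL4A3, COL26A1 and COL18A1. The peak inside COL18A1, whose C-terminal fragment is endostatin, lay at the promoter of SLC19A1, a folate transporter gene. Of these 10 peaks, 4 held 3 fragments, at COL4A3, COL8A1 and COL23A1 (2 peaks). Counted by position, 18 of 44 collagens again held a peak (40.9%, against 17% of protein-coding genes), but not the same 18. COL4A3, COL18A1 and COL26A1 came in, COL13A1, COL17A1 and COL21A1 dropped out, and 15 genes were in both counts. Of the 38 peaks, 14 lay in the first 50 percent of the gene span and 24 in the last 50 percent. This split was not made over all protein-coding genes, so it is a count only.

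**Figure D2:**
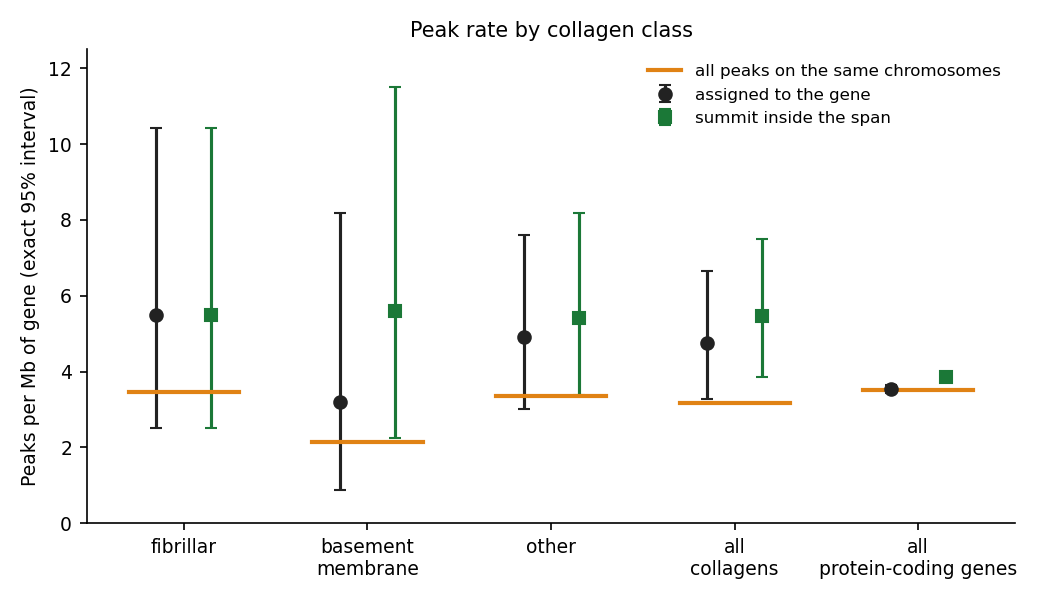
Peaks per Mb of gene in the 3 collagen classes, in all collagens and in all protein-coding genes. Circles are peaks assigned to the gene, squares are peaks with the summit inside it, bars are exact Poisson 95% intervals, and the horizontal line is the rate of all peaks on the chromosomes of that group. The intervals of the 3 classes overlap, and the basement membrane class moved most between the 2 counts, with 3.19 assigned and 5.59 inside per Mb.

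The classes were compared per Mb of gene, since collagen genes range from 16.8 to 494 kb. Fibrillar collagens had 5.50 assigned peaks per Mb (exact Poisson 95% interval 2.51 to 10.4), basement membrane collagens 3.19 (0.870 to 8.17) and other collagens 4.92 (3.0 to 7.59). The fibrillar rate was 1.12 times that of the other collagens, with an exact interval of 0.448 to 2.57. The basement membrane rate was 0.649 times that of the other collagens (0.161 to 1.94) and 0.581 times the fibrillar rate (0.131 to 2.08). All 3 intervals include equal rates and also differences of more than 1.5 times, so the classes could be neither separated nor called alike. Counted by position the rates were 5.50 for fibrillar, 5.59 for basement membrane and 5.41 for other collagens. The 3 peaks that raised the basement membrane class lay inside COL4A2 (2 peaks) and COL4A3 and had been assigned to noncoding genes.

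All collagens together had 4.74 assigned peaks per Mb (3.26 to 6.66), against 3.53 over all protein-coding genes. The ratio was 1.34, with an exact interval of 0.923 to 1.89. By position the rates were 5.46 for collagens and 3.85 per Mb for all protein-coding genes, a ratio of 1.42 (1.0 to 1.95). Without COL28A1 the collagen rates were 4.0 assigned (2.64 to 5.82) and 4.89 by position (3.36 to 6.86), and both intervals then include the rate over all protein-coding genes. On the chromosomes of the collagen genes, weighted by their lengths, all peaks together had a rate of 3.17 per Mb.

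Collagens with a peak were longer than those without, although the ranges of length overlapped. The 18 genes with an assigned peak had a median length of 200.1 kb, and the 26 without had a median of 70.5 kb. The shortest gene with a peak was COL16A1 at 51.8 kb, and the longest without was COL24A1 at 428 kb. Spearman's rho between length and assigned peaks was 0.425 over the 44 collagens and 0.30 over the 20056 protein-coding genes. With peaks counted by position it was 0.422 and 0.419, so the gap was seen by assignment only. These are descriptions across genes of 1 library, which are not replicates. Collagen genes are long, with a median of 145 kb against 24.1 kb for all protein-coding genes. The share of collagens with a peak, 40.9% (26.3 to 56.8), therefore stood beside a background of 17.2% that was made up mostly of shorter genes. With 2 or more peaks there were 7 collagens of 44, against 3.8% of protein-coding genes. That background too was made up mostly of shorter genes, and no share over genes of like length was set beside this count.

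**Figure D3:**
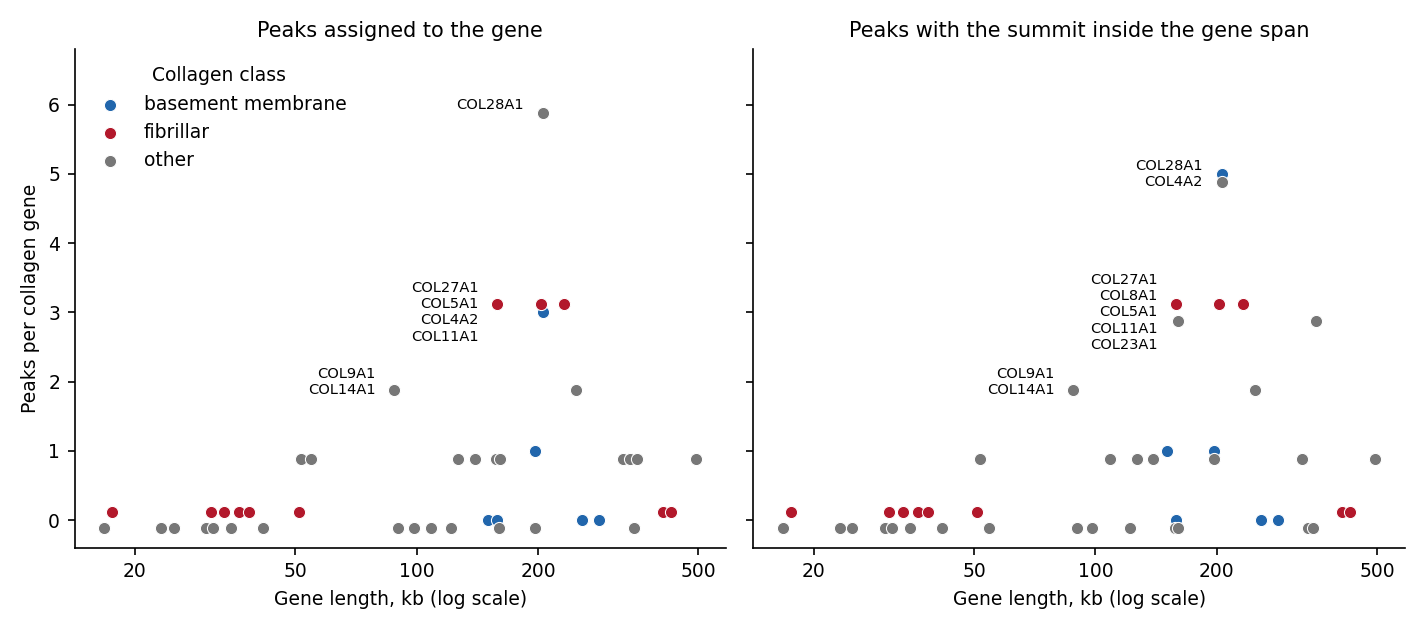
Peaks per collagen gene against gene length in kb on a log scale, by assignment on the left and by position on the right. Each point is 1 of the 44 genes, coloured by class and set off slightly upward (fibrillar) or downward (other) from the whole number so that points do not hide each other, and names stand beside genes with 2 or more peaks, listed by length. None of the 12 genes under 50 kb had a peak, and the genes with 5 or 6 are both about 206 kb long.

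Collagens were then set beside protein-coding genes of the same length range. Under 50 kb, 0 of 12 collagens had an assigned peak, against 10.3% of protein-coding genes. This class included COL1A1, COL1A2, COL2A1, COL3A1 and COL11A2, so 5 of the 8 fibrillar genes without a peak were short. Their summed length with the 7 other short collagens was 0.359 Mb, and 0 peaks allow a rate of up to 8.36 per Mb. Between 50 and 150 kb, 5 of 10 collagens had a peak (50%, 18.7 to 81.3), against 24.6%. Between 150 and 300 kb, 9 of 15 did (60%, 32.3 to 83.7), against 41.9%. At 300 kb or more, 4 of 7 did (57.1%, 18.4 to 90.1), against 58%. The background share lay inside the collagen interval in each of the 4 ranges.

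**Figure D4:**
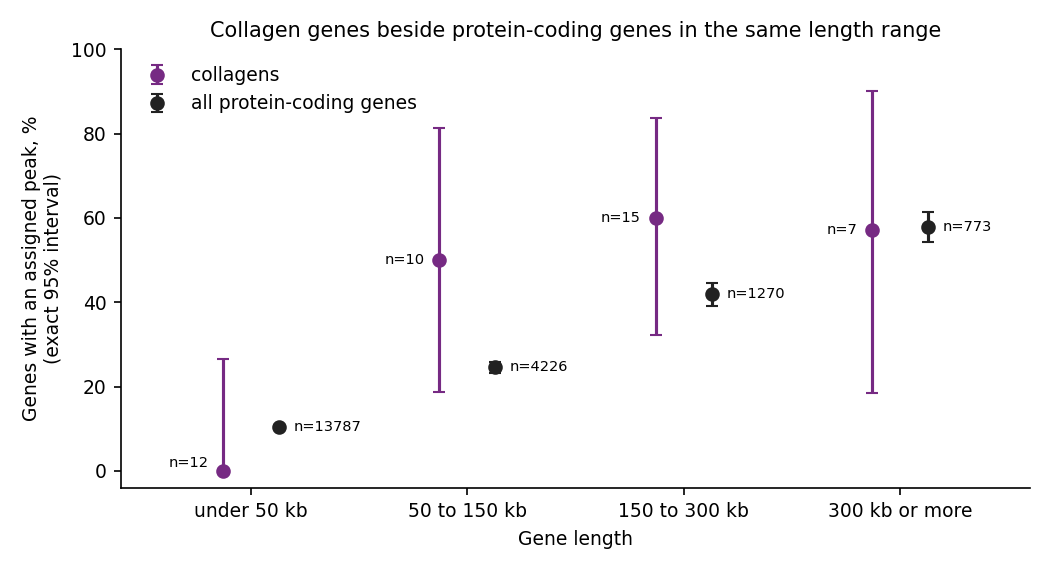
Share of genes with an assigned peak, in percent with exact binomial 95% intervals, by gene length. Collagens are on the left of each pair and all protein-coding genes on the right, with the number of genes beside each point. The background share rises with length between 10.3% and 58%, and it lies inside the collagen interval in every range.

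Rates per Mb differed from the background in 1 range. By position, collagens of 150 to 300 kb held 27 peaks, or 9.07 per Mb (5.98 to 13.2), against 3.57 (3.34 to 3.8) for protein-coding genes of that length. By assignment the values were 7.73 (4.90 to 11.6) and 2.93 per Mb. COL28A1 and COL4A2 held 10 of the 27 peaks. Without both, the rate by position was 6.63 per Mb (3.86 to 10.6), and the lower end of its interval was just above the background. By assignment it was 5.46 (2.98 to 9.16), likewise just above. In the longest range the order was the other way, with 1.86 peaks per Mb by position (0.603 to 4.33) in 7 collagens, against 3.50 per Mb. The length ranges and the genes left out were chosen with results known, and the peaks of 1 gene need not be independent of each other.

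Collagen peaks were spread over 11 of the 17 chromosomes that carry a collagen gene. COL5A1, COL15A1 and COL27A1 on chromosome 9 were assigned 7 of the 33, with a summed length of 0.488 Mb. The list as a whole had 2.77 peaks per Mb on that chromosome. Chromosome 9 is named because its count was the highest, so it is a description. By position, collagen rates on single chromosomes ran between 0 and 14.3 per Mb, the highest on chromosome 9. Chromosomes 7 and 13 were close to it, with 13.7 per Mb each. Chromosome 20, with 7.42 peaks per Mb, carries COL9A3 and COL20A1, and neither had one. These genes sum to only 0.0666 Mb, too short for their lack of a peak to say anything about the rate. The background of the caller was 0.0999 to 0.185 fragments at collagen peaks with a median of 0.125, against a median of 0.12 over all peaks. Copy number and mappability of these loci in T98G were not measured here, and their part in the counts was not tested.

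Genes that make, process and bind collagen were counted beside the collagens themselves. Of 89 such genes in 6 lists, 21 had at least 1 assigned peak (23.6%), against 17.2% of protein-coding genes. Their median length was 37.7 kb against 24.1 kb, and the shares were not matched for length. For these lists peaks were counted by assignment only, and some lay outside the gene. Promoter peaks were assigned to 5 of the 89 genes (5.62%), against 5.98%. The rate was 3.51 assigned peaks per Mb (2.20 to 5.31), against 3.53 over all protein-coding genes. For chain modification and folding, 3 of 21 had a peak. They were PLOD2, a lysyl hydroxylase, P3H2, a prolyl 3-hydroxylase, and COLGALT2, a collagen galactosyltransferase, each with 2 fragments at its tallest peak. For processing and crosslinking, 5 of 14 had one. The tallest were at ADAMTS14, a procollagen N-propeptidase (promoter, 3 fragments, 3.63-fold), and at LOX, the lysyl oxidase that starts crosslinking (3 fragments, 3.46-fold). The LOX peak was intronic by annotation but 15.6 kb from the assigned start, a distance longer than the 15.1 kb gene. TLL2 and ADAMTS3 followed with 2 fragments each, and the ADAMTS3 peak was intergenic.

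Collagen receptors had 3 of 11, namely DDR2, ITGA2 and, at a promoter, ITGA10. Collagen-degrading proteases and their inhibitors had 2 of 14, the collagenase MMP13 (an intergenic peak) and, at its promoter, the membrane protease MMP14. Basement membrane partners had 5 of 16. LAMA5 and LAMA4, laminin alpha chains, had 4 fragments at 3.25-fold (promoter) and 3 fragments at 3.64-fold. The LAMA5 peak stood on a caller background of 0.538 fragments, above the 0.185 that was the highest at any collagen peak. SPARC, a collagen-binding glycoprotein, had a promoter peak of 2 fragments at -309 bp from its start, and LAMB1, a laminin beta chain, an intronic one. Fibril partners had 3 of 13, the small leucine-rich proteoglycans DCN, ASPN and KERA, each with 2 fragments. The KERA peak was intergenic, and those of DCN and ASPN lay upstream of the assigned start.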

How the data were processed

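Pan-Kcr ChIP-seq was analysed from 1 ChIP library and 1 input library of crotonate-treated T98G cells, through 1 deposited peak list. The authors called the peaks and gave each one its fold enrichment, which is a ratio over the caller's background, with p-value and q-value as −log10, a genomic class and the nearest transcript. The lengths, distances and other deposited values are in bp. For aligner, caller, threshold, build and read depth, the sources used here give nothing. Peak coordinates are those of the deposited list.

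Fragment depth (n) and background (b) were solved from fold = (n + 1)/(b + 1) and the Poisson p-value. All 97 distinct pairs fitted, with a largest error of 6.52e-05 in −log10 p. The build was read from the data: of 4578 protein-coding peaks, 99.3% had an assigned transcript that overlapped the GRCh38.p14 RefSeq gene of the same symbol, and in 21.1% an end was identical. Of 3469 assigned protein-coding symbols, 3446 matched RefSeq, and 44 of 44 collagens did. Gene lengths, spans and promoter sequences are from RefSeq on GRCh38.p14. A gene's RefSeq start is the outer end of its span.

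With 1 ChIP library no test between samples was possible. Shares have exact binomial (Clopper-Pearson) and rates exact Poisson intervals at 95%, a ratio of rates an exact conditional one, and a count of 0 allows 3 counts. They cover counting error only. The solving of fragment depth was checked on values simulated from the same equation, and the intervals on simulated counts. Assignment, gene spans and length ranges were not checked in this way. The collagen genes, classes, lists and length ranges were chosen with earlier results of these data known. Collagens with a peak are named, and full values are given for promoter peaks, peaks of 3 fragments and genes with 2 or more peaks. Of each partner list up to 4 genes with the highest fold enrichment are named, ties by position. Intervals were computed with scipy 1.17.1 and tables with pandas 2.3.3 and numpy 2.4.6 under Python 3.11.15. Plots were drawn with matplotlib 3.10.9.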

Additional observations from a re-analysis of the deposited data

How the results depend on the processing

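Of 46 alternative values, 34 stayed close to those reported and 12 moved beyond them. With peaks at or above the list's median fold enrichment of 2.73, there were 12 collagen peaks at 10 genes, 2 genes with a promoter peak, and 2.44 fibrillar, 1.6 basement membrane and 1.48 other collagen peaks per Mb. With 3 or more fragments there were 6 peaks at 5 genes, and 1 gene with a promoter peak. The rates were then 0 fibrillar, 1.6 basement membrane and 0.983 other peaks per Mb. The basement membrane rate, the lowest of the 3 in the full list, was then the highest, but it rested on 2 peaks of COL4A2. The other rate rested on 4 peaks at 4 genes, and 0 fibrillar peaks allow up to 1.83 per Mb. The changed order is therefore not a result about the classes. These filters keep fewer peaks by construction. A 1 kb promoter window left 3 genes. Dividing by the longest assigned transcript, with the RefSeq length kept for genes without one, gave 7.74 other collagen peaks per Mb over a shorter summed length. Leaving out intergenic peaks or chromosome 20 and merging peaks within 1 kb kept the counts within 1.5 times and the rates within their intervals, as did placing collagens VII, XV and XVIII with collagen IV for the basement membrane and other rates. Counting by position and leaving out COL28A1 were chosen after seeing the data. Counting by position raised the basement membrane rate to 5.59 per Mb, against 3.19 by assignment, still inside its interval. Leaving out COL28A1, run for the counts and the other rate, gave 27 peaks and 3.63 other peaks per Mb.

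No paired analysis was possible because no group has a second library. The limits are a depth of few fragments at each peak, no replicate, no untreated cells and unknown total depth. At 2 or 3 fragments, a collagen with no listed peak cannot be called free of crotonylation. With no q-value below 0.831, a listed collagen peak cannot by itself be called a crotonylated site either.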
